A study of Mus musculus with 92 samples.

Results

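The lumbar spinal cord of G93A-SOD1 mice was compared between 100 and 70 days of age. The arrays were chosen by their titles alone, as spinal cord of this genotype at either age, which gave 8 arrays at 100 days and 8 at 70 days, 16 of the 92 arrays of the series. Cords of wild type littermates, 7 arrays at 100 days and 8 at 70 days, were measured in the same way. They serve here to compare the ages without the transgene, within the limits of their own arrays given below. The labels give the strain as B6.Cg-Tg(G93A-SOD1)1Gur/J on the arrays of both genotypes, and they name no treatment and no sex. Precision is limited by the number of arrays, and the labels call the arrays replicates without saying that each came from its own mouse, so p-values measure the spread between these arrays.

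G93A-SOD1 mice carry extra copies of a human superoxide dismutase 1 gene with a mutation of familial amyotrophic lateral sclerosis, under the human gene's own promoter and so expressed in cells of many kinds and not only in motor neurons. Motor neurons of the lumbar cord are lost as the mice age, while microglia, the resident macrophages of the central nervous system, multiply and take on a phagocytic state, and astrocytes become reactive. RNA of the whole lumbar cord was hybridised, so fewer cells of a type and less RNA per cell cannot be told apart.

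Of the 16 arrays, 3 stood apart before any comparison. Replicate 1 at 70 days was dim, with 5212 probes detected (detection p under 0.05), against 11174 to 13171 on the 100-day arrays and 11310 to 13428 on the other 70-day arrays. Replicate 8 at 100 days carried transcripts of skeletal muscle. Its Ckm, the muscle creatine kinase, had a normalized log2 signal of 10.24, against a group median of 5.44, and its Acta1, skeletal alpha actin, was at 13.51, against a median of 9.08. Replicate 7 at 100 days carried blood transcripts, with Slc4a1, the anion exchanger of red cells, at 11.01 (median 6.43) and Lcn2, a neutrophil granule protein also made by reactive astrocytes, at 10.29 (median 7.21). The microglial gene Aif1 and the astrocyte gene Gfap were detected on 8 of 8 arrays at each age, as was the myelin gene Mbp, which bears out the labelled tissue, while Chat, of cholinergic neurons, was detected on 8 arrays at 100 days and 7 at 70 days. The probe for Sod1 averaged 0.14 log2 units more at 100 days (SE 0.10, limma adjusted p = 0.681), and its range at 100 days, 11.89 to 12.54, overlapped that of the wild type at 100 days, 11.89 to 12.22, so it does not separate transgene carriers. Results are given with all arrays, and again without replicate 1 at 70 days and replicate 8 at 100 days, a fit named below as the one without both arrays. Among wild type arrays replicate 5 at 100 days was also dim, with 9208 probes detected. Wild type replicates 3 and 5 at 70 days carried muscle transcripts, with Ckm at 12.96 and 12.70. Wild type changes and interactions below include these arrays.

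**Figure D1:**
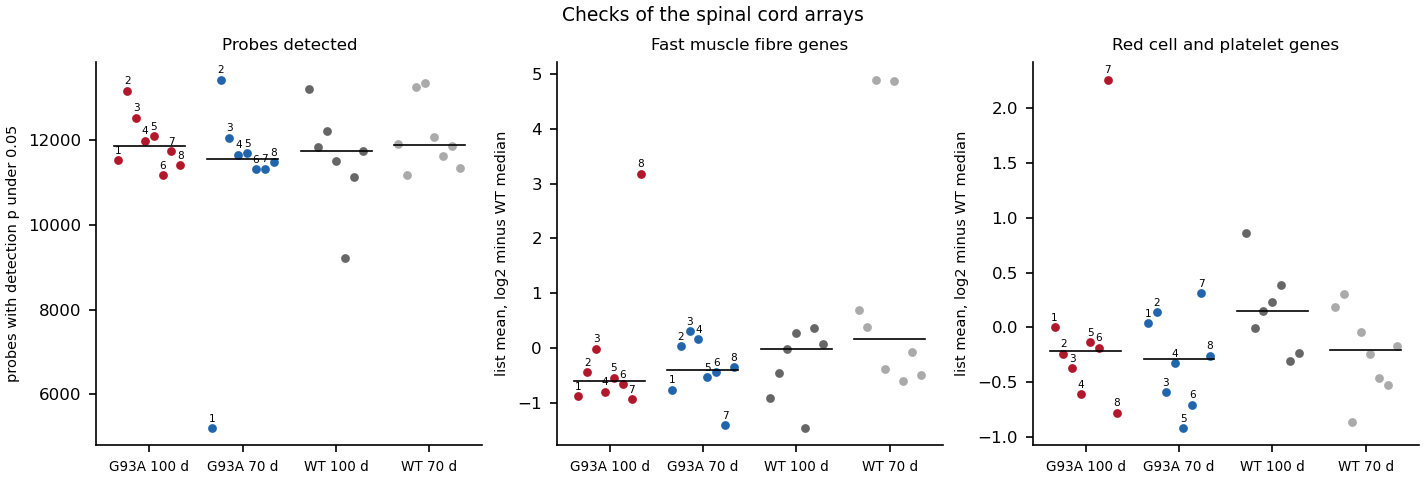
Probes detected (left, number of probes with detection p under 0.05), the mean of fast muscle fibre genes (middle) and the mean of red cell and platelet genes (right), both as log2 signal minus the median of wild type arrays, for each spinal cord array, with group medians as lines and replicate numbers on G93A-SOD1 arrays. Replicate 1 at 70 days lies at 5212 probes, replicate 8 at 100 days at a fast fibre mean of 3.18, and replicate 7 at 100 days at a red cell and platelet mean of 2.26.

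Across the transcriptome no gene passed the threshold. Of 10801 genes tested with limma, 0 (0%) had an adjusted p under 0.05 for 100 against 70 days in G93A-SOD1 cords, and 764 (7.07%) had an unadjusted p under 0.05. Of these 764, 517 (4.79% of genes tested) were higher at 100 days and 247 (2.29%) were lower. This split depended on the processing. It was 1058 higher and 28 lower when each array was centred on its median, and 631 and 556 with array weights. Without a filter on detection it was 677 and 685, of 19596 genes tested. The median log2 fold change over all genes was 0.04, with 59% of genes above 0. In wild type cords the same ages gave 0 genes at an adjusted p under 0.05 and 289 (2.68%) at an unadjusted p under 0.05, of which 127 (1.18%) were higher and 162 (1.5%) lower, with 49.9% of genes above 0. Leaving out replicate 1 at 70 days or replicate 1 at 100 days gave 480 genes at an unadjusted p under 0.05 in G93A-SOD1 cords, and leaving out replicate 2 at 70 days gave 1239.

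The genes of smallest p that were higher at 100 days were Abcc3, Sstr4, Arl11, Gstm1, Lyl1, Fgd2, Btk, Ctdp1, Gadd45a and Irf8. Arl11, a small GTPase of macrophages, had log2 signals of 4.73, 5.89 and 6.51 (lowest, median and highest array) at 100 days, against 4.52, 4.80 and 5.73 at 70 days. It was detected on 6 of 8 arrays at 100 days and 1 of 8 at 70 days, and the groups overlapped, since replicates 4, 5 and 8 at 100 days lay below replicate 2 at 70 days. Its log2 fold change was 0.84 (SE 0.19, adjusted p = 0.366), against -0.04 in wild type cords. Without replicate 8 at 100 days it was the 1 gene that passed, with a log2 fold change of 0.99 and a limma adjusted p of 0.0257. Over the alternatives, leaving aside 1 that chose arrays by their outcome, its adjusted p lay between 0.0257 and 0.811, and without both arrays it was 0.0691. Abcc3, Sstr4, Arl11, Irf8, Cd52 and Ccl4 passed the detection filter of 7 arrays only with the help of the 100-day arrays, as did 321 of the 10801 genes tested. Most 70-day values of these 6 genes lay at background, so their fold changes are uncertain in size.

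Only 3 of 10801 genes (0.0278%) had all 100-day arrays above all 70-day arrays, and 0 (0%) had them all below. Fgd2, a guanine nucleotide exchange factor for the GTPase Cdc42, ranged over 6.42, 6.56 and 6.92 at 100 days, against 5.70, 6.08 and 6.33 at 70 days, a log2 fold change of 0.56 (SE 0.14, adjusted p = 0.648). Gstm1, a glutathione S-transferase, ranged over 10.86, 10.91 and 11.31 at 100 days, against 10.38, 10.68 and 10.84 at 70 days, a log2 fold change of 0.34 (SE 0.08, adjusted p = 0.599). The gap for Gstm1 was narrow, and its wild type medians of 10.98 at 100 days and 10.95 at 70 days lay nearer to the 100-day than to the 70-day G93A-SOD1 arrays. Sstr4, a somatostatin receptor, ranged over 5.14, 5.31 and 5.67 at 100 days, against 4.61, 4.85 and 5.10 at 70 days, a log2 fold change of 0.52 (SE 0.11, adjusted p = 0.366). Sstr4 was dim, detected on 6 arrays at 100 days and on 1 at 70 days.

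Abcc3, an exporter of organic anions, was detected on 8 of 8 arrays at 100 days and 2 of 8 at 70 days, with a log2 fold change of 0.52 (SE 0.11, adjusted p = 0.362), the smallest adjusted p of this comparison. Lyl1, a transcription factor of blood and endothelial cells, and Btk, a tyrosine kinase of B cells and myeloid cells, had log2 fold changes of 0.57 and 0.60 (adjusted p = 0.648 each). Gadd45a, a p53 target induced by DNA damage, ranged over 8.65, 8.81 and 9.07 at 100 days, against 7.73, 8.42 and 8.75 at 70 days, and its log2 fold change was 0.48. Its groups overlapped at the edge only. Ctdp1, a phosphatase of RNA polymerase II, had a log2 fold change of 0.51, with replicate 6 the low array at 100 days. In wild type cords the log2 fold changes of Abcc3, Lyl1, Btk, Gadd45a and Ctdp1 went the same way, at 0.22, 0.27, 0.19, 0.22 and 0.12.

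Microglial genes were higher at 100 days on average, with large differences between arrays of the same age. Of 23 tested genes of the microglia and macrophage identity list, 21 had a log2 fold change above 0, with a median of 0.26 against 0.04 over all genes. At an unadjusted p under 0.05, 8 of the 23 were higher and 0 were lower, against 4.79% higher over all genes, and 0 of 23 had an adjusted p under 0.05. Irf8 and Hcls1 of this list passed the detection filter only with the help of the 100-day arrays, which limits these counts. Without both arrays the median was 0.45 and 14 of 23 were higher at an unadjusted p under 0.05, against 3.69% over all genes. These arrays were set apart for dimness and for muscle transcripts. In the mean of this list, as log2 signal minus the wild type median, replicate 1 was among the high 70-day arrays, at 0.77. Replicate 8 was the lowest 100-day array, at 0.07, so leaving both out widens the gap between the ages in that mean. In wild type cords the median of these genes was 0.16, with 0 at an unadjusted p under 0.05 in either direction. On the deposited series matrix values their median in G93A-SOD1 cords was 0.18, beside 0.10 over all genes. There 4 were higher at an unadjusted p under 0.05, against 1.18% over all genes. Under median centring 16 were higher, against 9.8% over all genes.

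Trem2, a lipid-sensing receptor of microglia, had log2 signals of 6.73, 7.84 and 8.88 at 100 days, against 5.35, 6.52 and 8.61 at 70 days, and a log2 fold change of 1.13 (SE 0.33, adjusted p = 0.648). Tyrobp, the adaptor through which Trem2 signals, ranged over 5.97, 7.18 and 8.39 at 100 days, against 4.94, 6.27 and 7.95 at 70 days, a log2 fold change of 0.96 (SE 0.30, adjusted p = 0.677). For both genes the highest 70-day array was replicate 2 and the lowest was the dim replicate 1. Without both arrays their log2 fold changes were 1.06 for Trem2 and 0.95 for Tyrobp. Irf8, a transcription factor that macrophages and microglia need to develop, ranged over 4.97, 5.62 and 6.19 at 100 days, against 4.68, 4.88 and 5.88 at 70 days, a log2 fold change of 0.58 (SE 0.16, adjusted p = 0.648), with replicate 2 again the one high 70-day array. Cd14, a co-receptor for bacterial lipopolysaccharide, had a log2 fold change of 0.63 (adjusted p = 0.648). Aif1, the calcium-binding protein known as Iba1, had 7.04, 7.56 and 8.29 at 100 days and 6.68, 7.34 and 8.42 at 70 days, and its log2 fold change of 0.19 (SE 0.21, adjusted p = 0.766) stood beside 0.44 in wild type cords and was 0.40 without both arrays.

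**Figure D2:**
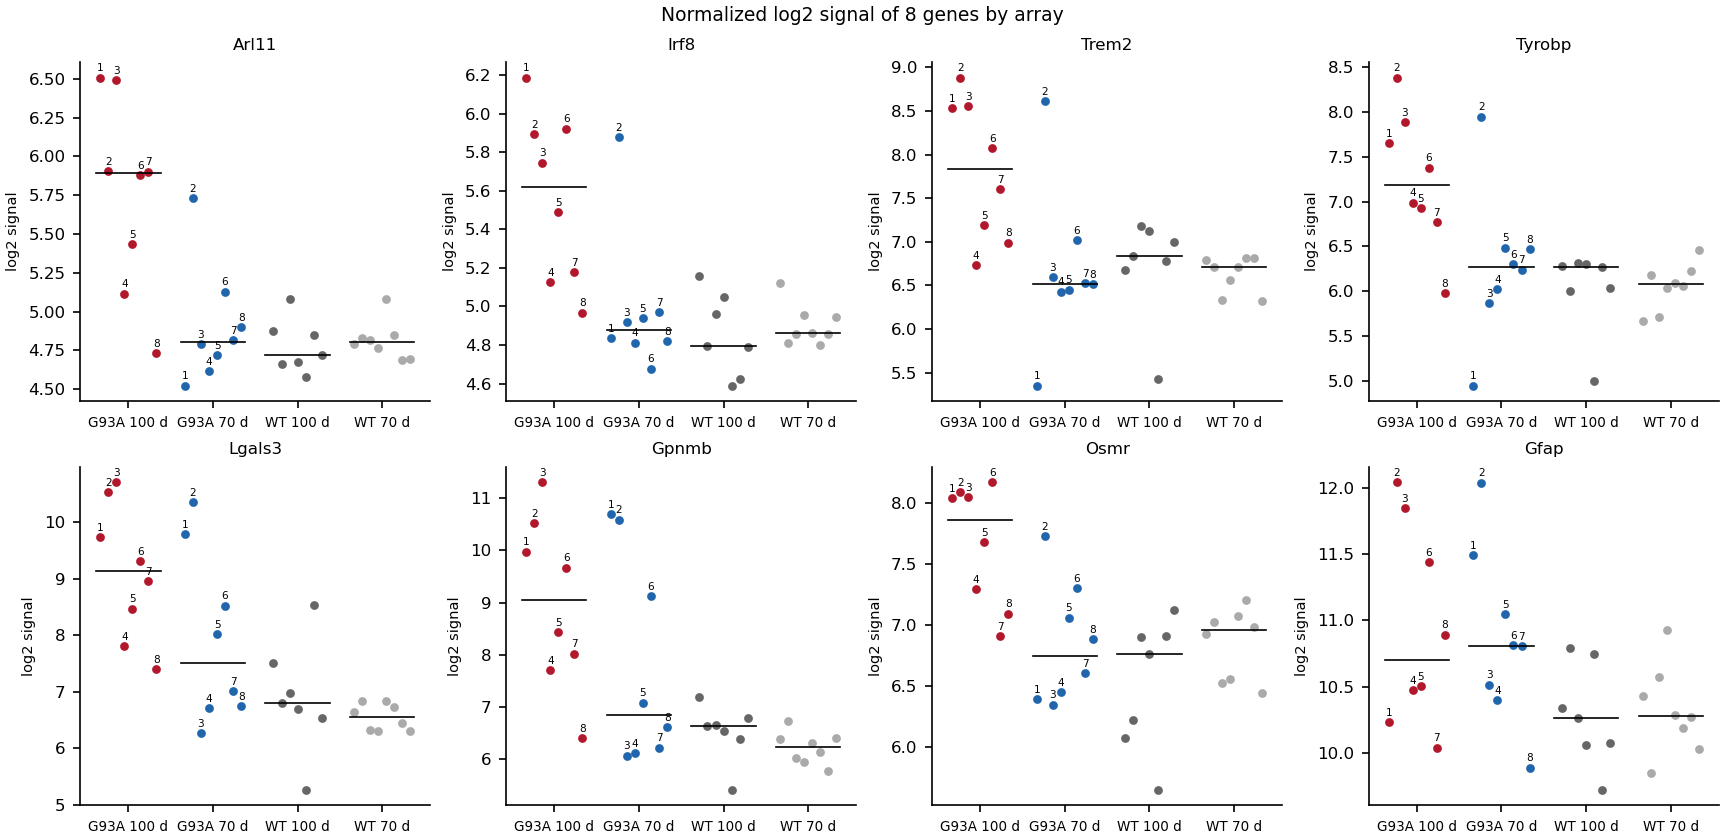
Normalized log2 signal of 8 genes on each spinal cord array, by group, with group medians as lines and replicate numbers on G93A-SOD1 arrays. For Arl11, Irf8, Trem2 and Tyrobp replicate 2 is the highest 70-day array, and Gfap, with medians of 10.70 at 100 days and 10.81 at 70 days, covers the same range at both ages.

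PU.1, the transcription factor that specifies myeloid cells, binds sites built around a GAGGAA core, so the letters before the starts of 9 described genes were read for it. The table of promoters from RefSeq (build GRCm38.p6) gives 1 or more transcript starts for a gene, and the 250 bases before each were read 5′ to 3′ on the gene's strand, with matches to GAGGAA or its reverse complement TTCCTC in capitals. Of the 9 genes, Trem2, Lyl1 and Osmr held 1 match each, and the other 6, Arl11, Irf8, Fgd2, Btk, Lgals3 and Gpnmb, held 0. Shown are the 3 windows with a match and that of Gpnmb as one without. The windows of Trem2, chr17:48346151-48346400 (plus strand), and Gpnmb, chr6:49036268-49036517 (plus strand), end just before the start of the gene's record. That of Lyl1, chr8:84701207-84701456 (plus strand), has 34 bases inside the record, and that of Osmr, chr15:6874314-6874563 (minus strand), lies inside it, as did those of Arl11 and Btk and 1 of those of Irf8, since these records extend past the start used.
Trem2: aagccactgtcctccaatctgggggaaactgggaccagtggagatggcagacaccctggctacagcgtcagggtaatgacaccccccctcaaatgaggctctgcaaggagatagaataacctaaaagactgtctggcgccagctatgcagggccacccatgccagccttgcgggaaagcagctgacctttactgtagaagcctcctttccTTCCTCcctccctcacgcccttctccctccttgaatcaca
Lyl1: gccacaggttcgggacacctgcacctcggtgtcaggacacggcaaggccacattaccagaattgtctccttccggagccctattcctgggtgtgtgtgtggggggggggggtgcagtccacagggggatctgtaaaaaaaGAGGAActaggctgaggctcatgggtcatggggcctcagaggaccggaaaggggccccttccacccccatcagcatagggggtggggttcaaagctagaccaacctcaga
Osmr: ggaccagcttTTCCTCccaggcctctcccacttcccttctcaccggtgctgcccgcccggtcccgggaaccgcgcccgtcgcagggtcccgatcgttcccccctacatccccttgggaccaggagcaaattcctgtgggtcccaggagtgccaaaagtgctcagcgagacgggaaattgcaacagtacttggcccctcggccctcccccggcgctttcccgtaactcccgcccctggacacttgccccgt
Gpnmb: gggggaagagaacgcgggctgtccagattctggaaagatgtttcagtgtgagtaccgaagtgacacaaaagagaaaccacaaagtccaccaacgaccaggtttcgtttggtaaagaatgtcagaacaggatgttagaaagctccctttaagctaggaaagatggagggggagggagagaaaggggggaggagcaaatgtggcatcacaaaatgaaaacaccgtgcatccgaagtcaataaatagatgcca
Of the 23 tested microglial genes, 16 had a window in the table and 9 of these held a match (56.2%), against 25.9% of 27025 genes with a window. A match is a description of letters and was not tested against binding, and other overlapping motifs were not searched.

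Genes of the phagocytic state were also higher on average at 100 days. Of 22 tested genes of the phagocyte activation list, 18 were above 0, the median was 0.28, and 4 were higher and 0 lower at an unadjusted p under 0.05, against 4.79% higher over all genes. With 1 array left out the median ran from 0.17, without replicate 1 at 70 days, to 0.37, without replicate 2 at 70 days, and 2 to 9 were higher. Without both arrays the median was 0.23, beside 0.12 in wild type cords, and 9 were higher, against 3.69% over all genes. In the mean of this list too, replicate 1 was among the high 70-day arrays, at 0.75, and replicate 8 was the lowest 100-day array, at 0.06. On the deposited series matrix values the median was 0.17, beside 0.10 over all genes, and 0 were higher, against 1.18%. Under median centring 11 were higher, against 9.8% over all genes. Cd52 and Cd44 of this list passed the detection filter only with the help of the 100-day arrays. Gpnmb, a membrane glycoprotein of lipid-laden macrophages, had log2 signals of 6.40, 9.05 and 11.31 at 100 days, against 6.06, 6.84 and 10.70 at 70 days, and a log2 fold change of 1.19 (SE 0.64, adjusted p = 0.677). Lgals3, a galectin of activated phagocytes, had 7.40, 9.13 and 10.71 at 100 days, against 6.27, 7.52 and 10.35 at 70 days, and a log2 fold change of 1.18 (SE 0.52, adjusted p = 0.677). Replicates 1 and 2 were the high 70-day arrays for both genes, and without both arrays the log2 fold changes were 1.98 for Gpnmb and 1.69 for Lgals3. Lyz2, the lysozyme of macrophages and neutrophils, had a log2 fold change of 0.99 with all arrays and 1.59 without both, beside 0.70 in wild type cords. Cd52, a surface glycoprotein of leukocytes, was detected on 6 arrays at 100 days and 2 at 70 days, with a log2 fold change of 0.78 (adjusted p = 0.677). Plin2, which coats lipid droplets, and Ch25h, which makes 25-hydroxycholesterol, had log2 fold changes of 0.30 and 0.44 (adjusted p = 0.677 each).

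The arrays of each age fell far apart for these genes. The mean of the 23 microglia and macrophage identity genes, as log2 signal minus the median of wild type arrays, was 1.04, 1.29, 1.01, 0.20, 0.28, 0.69, 0.33 and 0.07 on replicates 1 to 8 at 100 days, against 0.77, 1.13, -0.01, -0.01, 0.19, 0.21, -0.07 and 0.04 on replicates 1 to 8 at 70 days. At 100 days replicates 1, 2, 3 and 6 were high and replicates 4, 5 and 8 lay within the wild type range at that age, and at 70 days replicate 2 and the dim replicate 1 were high. The group means were 0.61 ± 0.46 at 100 days and 0.28 ± 0.43 at 70 days (SD, n = 8 each), against 0.08 ± 0.11 (SD, n = 7) in wild type cords at 100 days and -0.05 ± 0.08 (SD, n = 8) at 70 days. The median of the list lay between 0.14 and 0.43 when 1 array was left out at a time, lowest without replicate 2 at 100 days and highest without replicate 2 at 70 days, and 5 to 11 of the 23 were higher at an unadjusted p under 0.05.

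**Figure D3:**
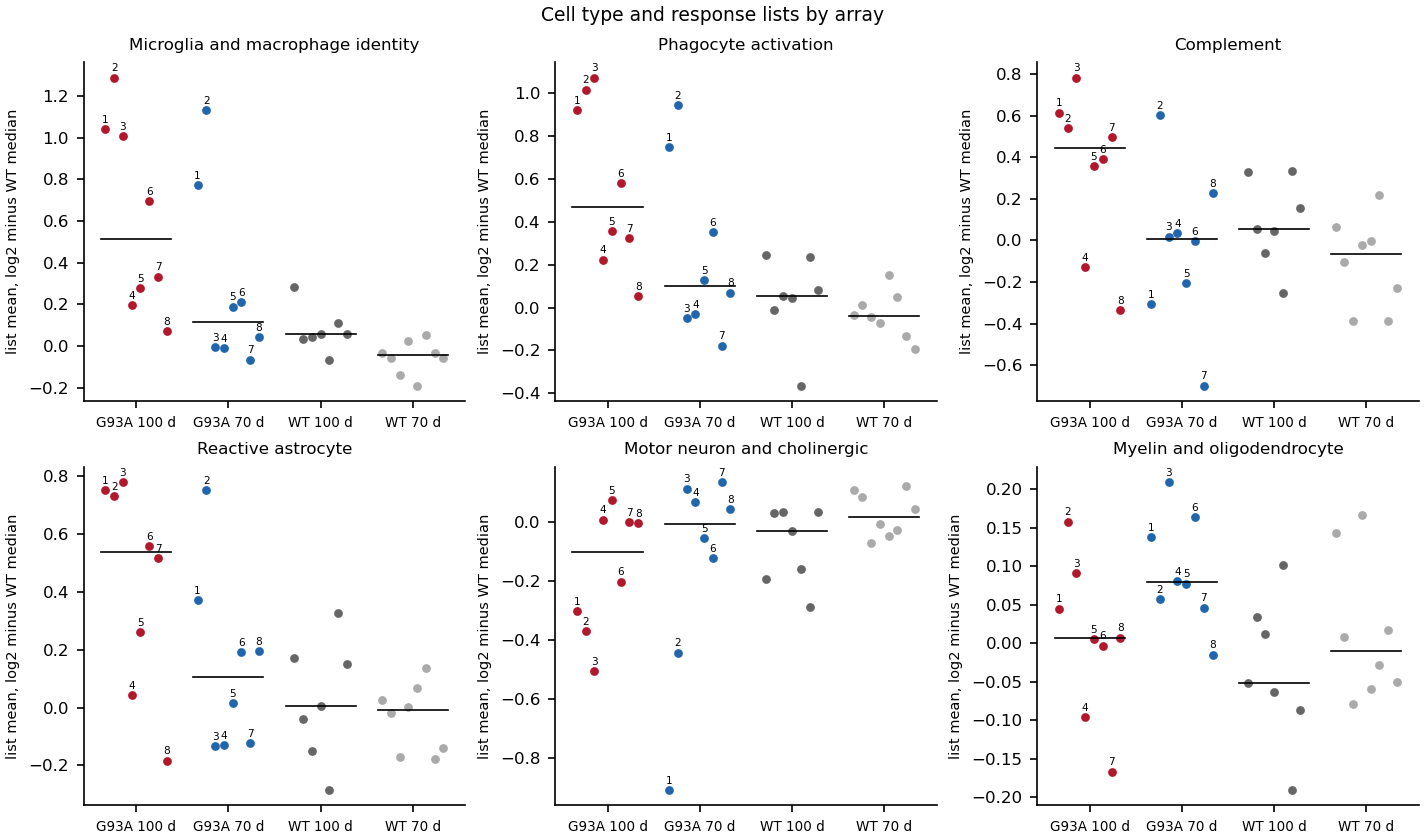
Mean log2 signal minus the median of wild type arrays for 6 gene lists on each spinal cord array, by group, with group medians as lines and replicate numbers on G93A-SOD1 arrays. For the microglia and macrophage identity list replicates 1, 2, 3 and 6 at 100 days lie at 0.69 to 1.29, replicate 2 at 70 days lies at 1.13, and the motor neuron list runs from -0.51 to 0.07 at 100 days.

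Complement genes, which tag debris and synapses for uptake by microglia, were higher on average as a list. Of 8 tested, 7 were above 0, against 59% of all genes, and the median was 0.41, beside 0.23 and 6 of 8 above 0 in wild type cords. At an unadjusted p under 0.05, 1 was higher with all arrays, against 4.79% over all genes, and 0 to 3 with 1 array left out. Without both arrays 4 were higher, against 3.69% over all genes, and the median was 0.67. C1qb, a chain of the C1q starter complex, had log2 signals of 8.83, 9.53 and 10.63 at 100 days, against 8.47, 9.03 and 10.47 at 70 days, a log2 fold change of 0.58 (SE 0.24, adjusted p = 0.677). C1qc, another chain of it, had a log2 fold change of 0.40 (SE 0.24, adjusted p = 0.677), beside 0.30 in wild type cords, and 0.67 without both arrays. The ages overlapped for both genes, with 10.47 and 10.43 as the highest 70-day values.

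Antigen presentation genes are given by class. Of 12 tested genes of MHC class I and peptide loading, 7 were above 0, against 59% over all genes, with a median of 0.19. At an unadjusted p under 0.05, 4 were higher and 2 lower, against 4.79% and 2.29% over all genes. In wild type cords 12 of 12 were above 0, against 49.9% over all genes, with a median of 0.16 and 2 higher, against 1.18%. Psmb9, a subunit of the immunoproteasome, had a log2 fold change of 0.62, H2-K1, a class I heavy chain, 0.66, and H2-M3, a non-classical class I chain, 0.51. Tapbp, which loads peptides onto class I molecules, had -0.47 (adjusted p = 0.677 for each of the 4), and its highest 70-day array, at 7.26, stood well above the 70-day median of 6.00. Near-identical class I genes may share hybridisation on these probes, so their values are uncertain. MHC class II had 6 of 8 genes above 0 and a median of 0.36, beside 0.58 in wild type cords. In wild type cords 3 were higher at an unadjusted p under 0.05, against 1.18% over all genes. H2-Aa, a class II alpha chain, had log2 fold changes of 0.71 in G93A-SOD1 and 0.62 in wild type cords, and H2-DMa, which edits class II peptides, 0.36 and 0.31.

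Chemokines and cytokines had 11 of 13 genes above 0 and a median of 0.39, with 4 higher and 0 lower at an unadjusted p under 0.05, against 4.79% higher over all genes, and the median in wild type cords was 0.13. Leaving out 1 array at a time gave 2 to 6 higher, and the median was lowest, 0.24, without replicate 1 at 70 days. Without both arrays 7 were higher, against 3.69% over all genes, and the median was 0.26. Of this list Ccl4 passed the detection filter only with the help of the 100-day arrays. Ccl4, a chemokine of activated microglia, was detected on 7 arrays at 100 days and 3 at 70 days, and on 0 wild type arrays of either age. Its log2 signals were 5.17, 7.11 and 8.49 at 100 days, against 4.62, 5.41 and 8.13 at 70 days, a log2 fold change of 0.99 (SE 0.47, adjusted p = 0.677) that was 1.47 without both arrays. The groups overlapped over most of their range. Ccl9 had a log2 fold change of 0.73, Cxcl16 0.62 and Ccl7 0.53, all chemokines that draw leukocytes, at an adjusted p of 0.677 each. Of 13 interferon response genes 10 were above 0, with a median of 0.15. At an unadjusted p under 0.05, 1 was higher, against 4.79% over all genes. It was Trim30a, with a log2 fold change of 0.40.

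Genes of the reactive astrocyte list leaned higher at 100 days, but its members did not all move alike. Of 17 tested genes of this list 14 were above 0, against 59% over all genes. The median was 0.36, beside -0.01 in wild type cords, and 2 were higher and 1 lower at an unadjusted p under 0.05, against 4.79% and 2.29% over all genes. Leaving out 1 array at a time gave 1 to 7 higher, most without replicate 8 at 100 days. Cd44 of this list passed the detection filter only with the help of the 100-day arrays. Osmr, the receptor for oncostatin M, had log2 signals of 6.91, 7.86 and 8.17 at 100 days, against 6.35, 6.74 and 7.72 at 70 days, a log2 fold change of 0.82 (SE 0.22, adjusted p = 0.648) against -0.32 in wild type cords. Replicates 7 and 8 were the low 100-day arrays and replicate 2 the high 70-day array. Emp1, a membrane protein of reactive astrocytes, had a log2 fold change of 0.57, and Srgn, a proteoglycan core protein, had -0.64 with its highest value, 9.12, on the dim array and -0.27 without both arrays. Gfap, the intermediate filament that defines reactive astrocytes, ranged over 10.04, 10.70 and 12.04 at 100 days, against 9.89, 10.81 and 12.04 at 70 days. Its log2 fold change was 0.06 (SE 0.27, adjusted p = 0.949), and 0.15 without both arrays, and it lay below 0 when any of 5 arrays was left out.

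The receptor subunit shared by interleukin 6, oncostatin M and related cytokines is gp130. Of 11 tested genes of its signalling list 7 were above 0, against 59% over all genes, with a median of 0.13. Clcf1 of this list passed the detection filter only with the help of the 100-day arrays. At an unadjusted p under 0.05, 3 were higher, against 4.79% over all genes. With 1 array left out the median ran from 0.045, without replicate 7 at 70 days, to 0.21, without replicate 8 at 100 days, and 1 to 3 were higher. The 3 were Osmr, Il6st, which encodes gp130 itself, and Socs3, a feedback inhibitor of the pathway. Il6st had a log2 fold change of 0.55 (SE 0.24), with its lowest 70-day value, 4.74, on the dim array, and 0.36 without both arrays. Socs3 had log2 signals of 5.06, 6.25 and 7.18 at 100 days, against 4.63, 5.67 and 6.79 at 70 days, and a log2 fold change of 0.53 (SE 0.26). Both had an adjusted p of 0.677. Of 18 resting astrocyte genes 12 were above 0, against 59% over all genes, with a median of 0.07. Cbs, which makes cystathionine, had a log2 fold change of 0.45 that was 0.18 without both arrays.

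With all arrays, neuronal genes as lists lay near 0. Of 18 tested genes of the motor neuron and cholinergic list 9 were above 0, against 59% over all genes, with a median of 0.01. At an unadjusted p under 0.05, 0 were higher and 1 lower, against 4.79% and 2.29% over all genes. Without both arrays the median was -0.11 and 4 of 18 were above 0. Chat, which makes acetylcholine, had 5.80, 6.14 and 6.91 at 100 days and 5.18, 6.37 and 6.65 at 70 days, with a log2 fold change of -0.07 (SE 0.23, adjusted p = 0.925), and -0.28 without both arrays. Slc18a3, which loads acetylcholine into vesicles, had 7.76, 8.54 and 8.98 at 100 days and 7.78, 8.90 and 9.30 at 70 days, with a log2 fold change of -0.35 (SE 0.20, adjusted p = 0.677). Anxa4, an annexin, had a log2 fold change of -0.37 (adjusted p = 0.677), and Vipr2, a receptor for vasoactive intestinal peptide, had -0.53 with all arrays and -0.19 without both, its value on the dim array being 8.25.

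The mean of the motor neuron list varied between arrays along with the microglial mean, but not every member followed. Chodl, a marker of fast motor neurons chosen after its values were seen, stood, as log2 signal minus the wild type median, at -1.87, -2.58, -2.40 and -1.29 on replicates 1, 2, 3 and 6 at 100 days, and between -0.27 and 0.50 on replicates 4, 5, 7 and 8. At 70 days it stood at -3.42 on the dim replicate 1 and -2.86 on replicate 2, and between -0.67 and 0.60 on the other 6 arrays. Its log2 fold change between the ages was -0.26 (SE 0.50, adjusted p = 0.867), and -0.77 without both arrays. With the dim array set aside, the 5 arrays of 15 with the highest microglial mean were also the 5 with the lowest motor neuron mean. These were replicates 1, 2, 3 and 6 at 100 days and replicate 2 at 70 days. This is a description of 15 arrays in which both means come from the same hybridisation. No stated rule fixed the cut at 5 arrays beforehand, and the relation was not tested. Among single members, Slc18a3 and Chat lay below the wild type median on each of these 5 arrays. Anxa4 and Vipr2, of the same list, lay on both sides of it. Chat was also low, at -0.46, on replicate 5 at 100 days, which was not among the 5.

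The broader neuronal lists lay near 0 with all arrays. Of 21 tested pan-neuronal and synaptic genes 9 were above 0, with a median of -0.04, and of 13 neurofilament and axonal cytoskeleton genes 5 were above 0, with a median of -0.02 and 0 at an unadjusted p under 0.05 in either direction. The dim array had the lowest 70-day mean of the pan-neuronal list, -0.83. Without both arrays 5 of the 21 and 4 of the 13 were above 0, with medians of -0.08 and -0.06. In that fit 1 pan-neuronal gene was lower at an unadjusted p under 0.05, against 1.86% over all genes. Vamp1, a synaptic vesicle protein, had 11.19, 11.59 and 11.80 at 100 days, against a lowest of 11.33 and a median of 11.80 at 70 days, a log2 fold change of -0.24 (SE 0.09, adjusted p = 0.677). Slc6a9, a glycine transporter, had a log2 fold change of -0.21 (adjusted p = 0.677). Of 18 axon injury and regeneration genes 12 were above 0, and Ecel1, a peptidase induced in injured neurons, had a log2 fold change of 0.55 with all arrays and 0.25 without both, its lowest 70-day value, 6.02, lying on the dim array.

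Oligodendrocyte and lipid synthesis genes leaned the other way by small amounts. Of 19 tested genes of the myelin and oligodendrocyte list 3 were above 0, with a median of -0.08 that was close to the -0.07 of wild type cords. At an unadjusted p under 0.05, 1 was lower, against 2.29% over all genes. That gene, Cldn11, a tight junction protein of myelin, ranged over 13.95, 14.18 and 14.44 at 100 days, against 14.24, 14.30 and 14.46 at 70 days, a log2 fold change of -0.15 (SE 0.07, adjusted p = 0.677). Mbp, a main protein of myelin, had a log2 fold change of 0.01 (SE 0.08, adjusted p = 0.974). Gal3st1, which makes the myelin lipid sulfatide, had a log2 fold change of -0.39 (adjusted p = 0.677). Of 12 oligodendrocyte precursor genes 3 were above 0, and Gpr17, a receptor of cells about to myelinate, had -0.31 in G93A-SOD1 cords and -0.60 in wild type cords. Of 17 cholesterol synthesis genes 4 were above 0 with all arrays, and 0 without both, where the median was -0.17. In that fit 4 were lower at an unadjusted p under 0.05, against 1.86% over all genes. Insig1, which holds back sterol synthesis, had a log2 fold change of -0.55 (SE 0.22, adjusted p = 0.677). Centring each array on its median in place of quantile normalization put the median of all genes at 0.41, and relative to that shift the medians of the myelin, precursor and cholesterol lists, 0.43, 0.39 and 0.37, lay close to it, so their direction depends on the scaling.

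Lysosomal genes, which clear what phagocytes take up, had 24 of 31 members above 0, a median of 0.11, and 3 higher and 0 lower at an unadjusted p under 0.05, against 59% above 0 and 4.79% higher over all genes. With 1 array left out the median ran from 0.067, without replicate 1 at 100 days, to 0.18, without replicate 2 at 70 days, and 2 to 9 were higher. Naglu, Ctsh and Tpp1, a glycosidase and a pair of proteases of the lysosome, had log2 fold changes of 0.71, 0.69 and 0.38 (adjusted p = 0.677 each), and 0.59, 0.53 and 0.21 without both arrays. The dim array held the lowest 70-day value of Ctsh, 4.83, and of Tpp1, 6.63. Of 20 antioxidant and metal response genes 13 were above 0, with 3 higher at an unadjusted p under 0.05, against 4.79% over all genes. Among them were Gstm1, described above, Sod3, the extracellular superoxide dismutase, at 0.34, and Prdx2, a peroxiredoxin, at 0.23, which was 0.10 without both arrays. Oxidative phosphorylation, with 35 genes tested, had a median of 0.01 and 0 genes at an unadjusted p under 0.05 in either direction.

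The matrix and fibroblast list had 20 of 25 genes above 0 and a median of 0.21, with 3 higher and 1 lower at an unadjusted p under 0.05, against 59% above 0, 4.79% higher and 2.29% lower over all genes. With 1 array left out the median ran from 0.14 to 0.31 and 1 to 4 were higher. Fbln2 and Fbln1, fibulins of the extracellular matrix, had log2 fold changes of 0.65 and 0.41, beside 0.16 and 0.55 in wild type cords. Igfbp4, which binds insulin-like growth factors, had 0.41, and Ogn, a small proteoglycan, had -0.44. The ages overlapped for each of these 4 genes.

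The genes of smallest p that were lower at 100 days were Def8, Ebag9, Olfr1284, Gml2, Cdkn1c, Dok6, Gramd3, Gsn, Gal3st1 and Zfp352, with adjusted p from 0.648 to 0.677. Gsn, gelsolin, which severs actin filaments, had log2 signals of 5.65, 7.77 and 8.24 at 100 days, against 8.14, 8.47 and 8.58 at 70 days, a log2 fold change of -0.78 (SE 0.26), with the lowest value on replicate 1, and -0.50 without that array. Cdkn1c, an inhibitor of the cell cycle, ranged over 9.28, 9.82 and 10.23 at 100 days, against 9.73, 10.12 and 10.38 at 70 days, a log2 fold change of -0.35 (SE 0.11). The ages overlapped for every gene of this group, Gsn and Cdkn1c included, and some of the others were dim. The log2 fold change was -0.56 for Ebag9, -0.51 for Gramd3, -0.48 for Gml2, -0.39 for Def8 and -0.38 for Dok6, an adaptor of the Ret receptor. Olfr1284, an olfactory receptor, was not well above background on any 100-day array, and its mean was at least 1.17-fold lower there. That bound uses a 70-day mean that includes 6.79 on the dim replicate 1, the next array being 5.77, so it is uncertain. For Zfp352, also not well above background at 100 days, no fold is given. Both genes passed the detection filter only with the help of the 70-day arrays. So did 258 of the 10801 genes tested, Arl11 and Irf8 among them.

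Markers of other tissues moved with single arrays. The fast fibre list had 16 of 20 genes above 0 and a median of 0.28 with all arrays, and 1 of 20 above 0 and a median of -0.25 without both, its list mean being 3.18 on replicate 8 and -0.93 to -0.01 on the other 100-day arrays, against -1.41 to 0.32 at 70 days. In wild type cords the list had a median of -1.62, with 8 genes lower at an unadjusted p under 0.05, against 1.5% over all genes. Its list mean there reached 0.36 at 100 days, against 4.89 at 70 days. Ckm had a log2 fold change of 0.39 with all arrays and -0.32 without both. The monocyte and neutrophil list had 11 of 11 genes above 0 and a median of 0.49, with 0 at an unadjusted p under 0.05 in either direction, and without replicate 7 at 100 days its median was 0.02, beside 0.48 in wild type cords. The red cell and platelet list had 4 of 5 genes above 0 and a median of 0.23, and -0.05 without replicate 7. For the microglia and macrophage identity list the median was 0.31 without replicate 7 and 0.45 without both arrays. The part of blood cells in single genes such as Lyz2 was not tested.

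**Figure D4:**
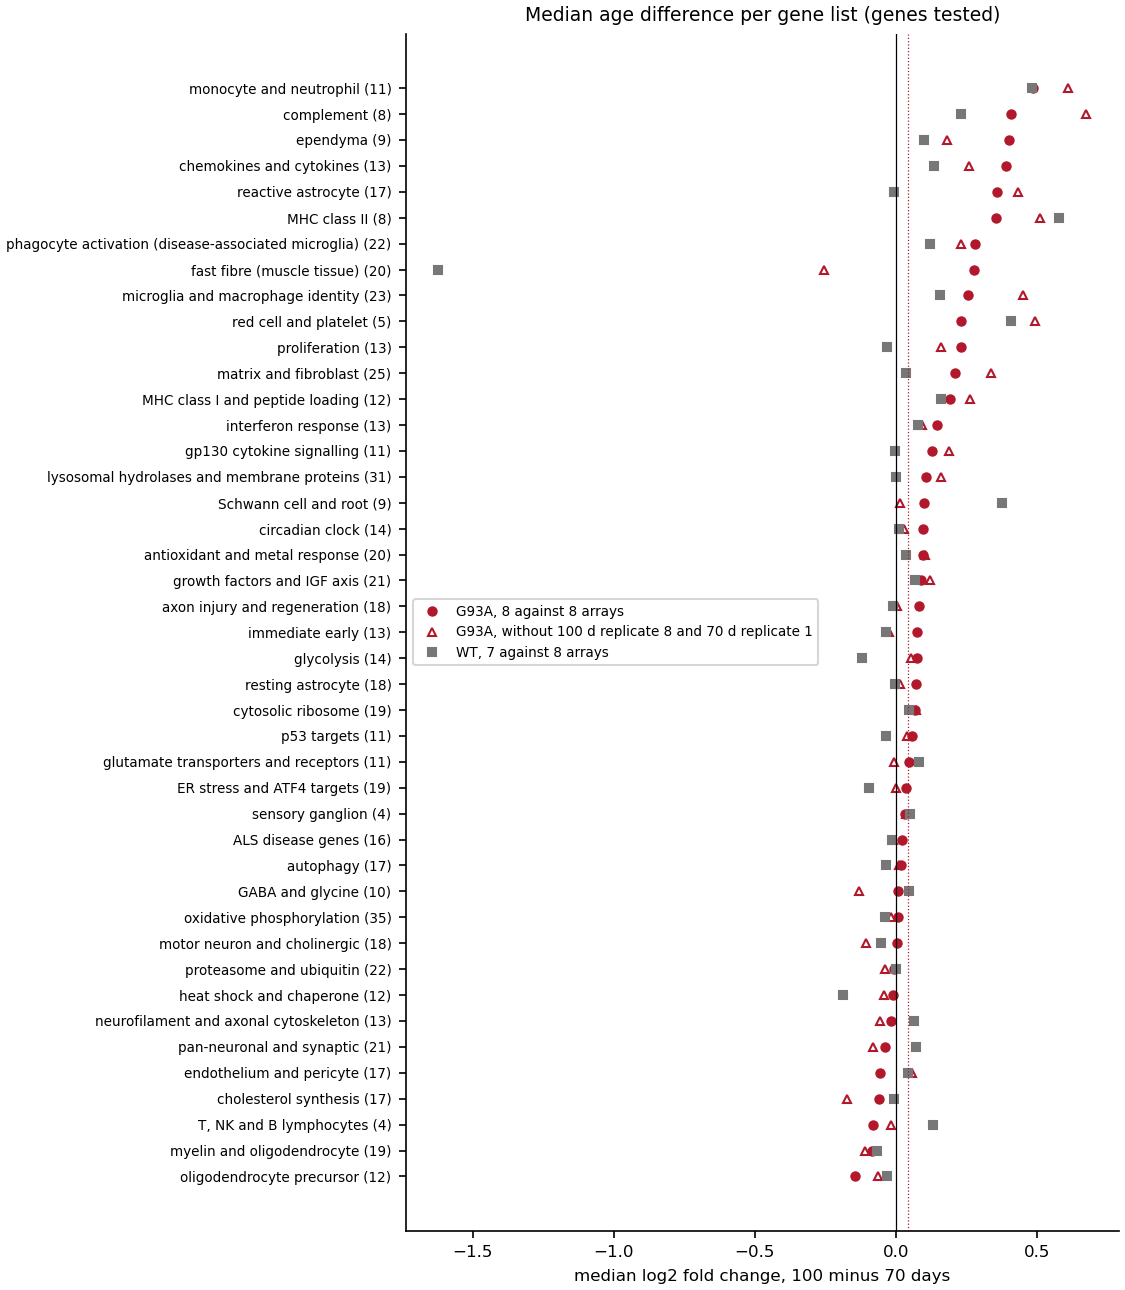
Median log2 fold change, 100 minus 70 days, of 43 gene lists (genes tested in brackets) in G93A-SOD1 cords with all arrays (filled circles), without replicate 8 at 100 days and replicate 1 at 70 days (open triangles), and in wild type cords (squares). The dotted line is the median of all genes, 0.04; the complement list lies at 0.41, and the fast fibre list lies at 0.28 with all arrays and at -0.25 without both.

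The difference between the age effects of the 2 genotypes was tested as an interaction. It gave 0 of 10801 genes (0%) at an adjusted p under 0.05 with limma, and 436 (4.04%) at an unadjusted p under 0.05, of which 265 (2.45%) were higher and 171 (1.58%) lower in G93A-SOD1, with 57.4% of genes above 0. No age effect above is therefore shown to differ from that of wild type cords. The genes of smallest interaction p included Sstr4, Desi2, Osmr and H2bc22, a histone, in the higher direction, at 0.58, 1.09, 1.14 and 0.40, and Dok6, Ebag9, Gml2 and Dao, which oxidises D-amino acids, in the lower direction, at -0.63, -0.78, -0.64 and -0.90. Each of these had an adjusted p of 0.803. For Arl11, Trem2 and Irf8 the interaction was 0.88, 1.05 and 0.63, at the same adjusted p.

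**Figure D5:**
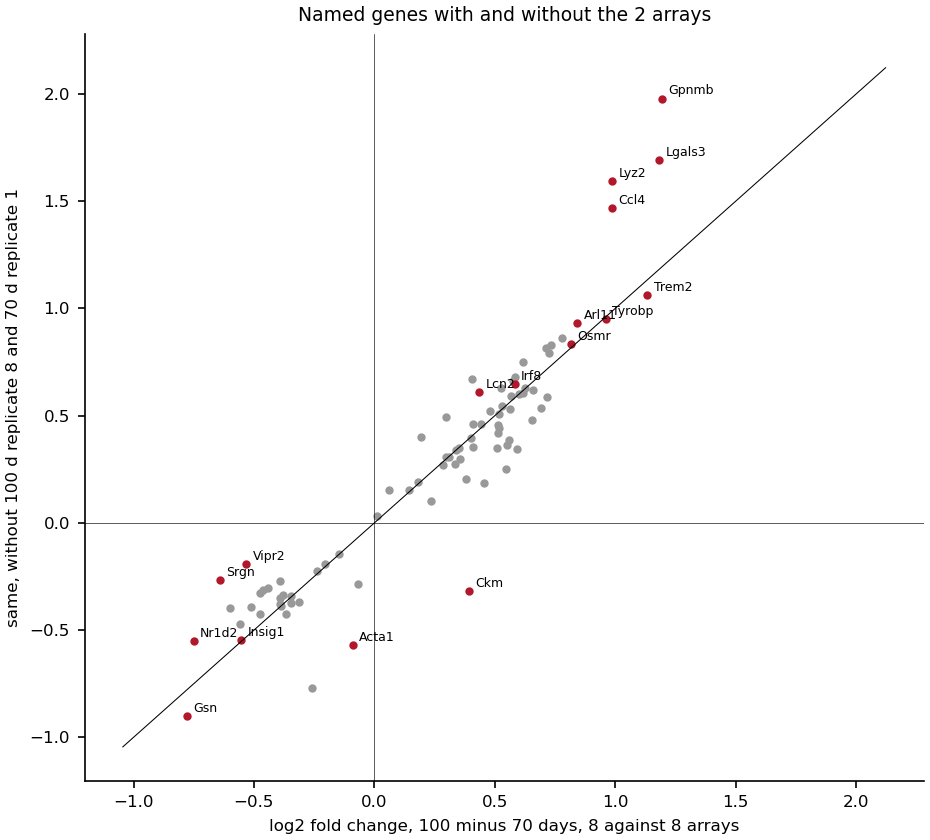
Log2 fold change, 100 minus 70 days, of 87 named genes with all arrays (x axis) and without replicate 8 at 100 days and replicate 1 at 70 days (y axis), with the line of equality. Gpnmb (1.19 and 1.98) and Lgals3 (1.18 and 1.69) lie above the line, Trem2 and Tyrobp lie on it, and Ckm lies on opposite sides of 0.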

How the data were processed

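Whole-cord RNA was hybridised to Illumina arrays, with 8 arrays of G93A-SOD1 cord at 100 days, 8 at 70 days, and 7 and 8 of wild type cord. Per the file headers, the deposited intensity values were non-normalized, and each came with a detection p-value deposited by the authors, with no software named in the labels or headers. The log2 values of the deposited series matrix, used as an alternative, have an unstated normalization, with column medians of 6.38 on the dim cord array and 7.42 on other arrays, and their scale beyond log2 stays unknown.

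The 31 cord arrays were normalized together with neqc of limma (offset 16). Probes with a detection p-value under 0.05 on at least 7 arrays were kept and the brightest stood for its gene, giving 10801 features, of which 9255 had a gene symbol and 1546 did not; all are called genes here. Of 24613 probes 20984 had 1 symbol, 1 had several and 3628 had none; 7 lines without a probe (0.00539% of signal) were left out. Symbols came from the platform table, matched to RefSeq genes of GRCm38.p6 for 20968 probes. No genome build of the authors is named in what was used here. Groups were fitted together with lmFit and eBayes of limma, with Benjamini-Hochberg adjustment over all genes at 0.05; p-values of single genes are from this limma fit.

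Members and lists were chosen with earlier results of these data known. A rule took the 10 genes of smallest p in each direction, the leading 2 or 4 of each of 43 lists, the 5 of smallest interaction p in each direction, and a set always named (of which Nefl, Snap25 and Xist were not tested); the text gives 87 genes, a subset picked after values were seen, with Chodl and Slc18a3 added then. List values are counts and medians without a test. The replicate numbers were checked as pairs: correlations of same-numbered arrays ran from -0.302 to 0.526, with 5 of 8 over 0.1. The main fit did not use them as pairs, and a fit with the replicate number as a block is given below. The fit was checked on simulated data with independent noise of equal spread on every array. That check cannot show how the fit behaves with dim arrays or arrays that carry other tissue. Software was R 4.3.3, limma 3.58.1, the data.table package (1.17.8), Python 3.11.15 and matplotlib 3.10.9.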

Additional observations from a re-analysis of the deposited data

Results flagged for a closer look

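Within each age group, arrays whose gap to the nearest other array was large against the range of the group (Dixon's test) were listed. There were 37 among 200 groups of values checked, where about 10 would arise by chance. The groups share the same arrays and hold genes picked after values were seen, so these numbers are no test against chance. Of the 37, 17 fell on replicate 1 at 70 days, 6 on replicate 2 at 70 days and 5 on replicate 8 at 100 days. On the dim replicate 1 at 70 days, with 5212 probes detected, the lowest log2 signals were those of H2-M3 at 5.27, Il6st at 4.74, Cbs at 4.94, Chat at 5.18, Ecel1 at 6.02, Ctsh at 4.83, Tpp1 at 6.63, Prdx2 at 8.36, Igfbp4 at 7.07 and Per1, of the circadian clock, at 4.78, and the mean of the pan-neuronal and synaptic list, at -0.83. The highest signals on that array were those of Olfr1284 at 6.79, Srgn at 9.12, Vipr2 at 8.25, Nr1d2, a clock repressor, at 10.02 and Dao at 7.64.

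On replicate 2 at 70 days Irf8 was high at 5.88, Cd14 at 6.58, Sod1 at 12.6 and the lysosomal list mean at 0.38, while Vamp1 was low at 11.33 and Slc18a3 at 7.78. At 100 days replicate 8 was high for Ckm at 10.24, Acta1 at 13.51 and the fast fibre list mean at 3.18, and low for H2-Aa at 4.63 and Cxcl16 at 4.92. Replicate 7 at 100 days was high for Lcn2 at 10.29, Slc4a1 at 11.01, Alas2, which starts haem synthesis in red cells, at 9.65, the monocyte and neutrophil list mean at 3.32 and the red cell and platelet list mean at 2.26. Replicate 1 at 100 days was high for H2-M3 at 7.77 and low for Gsn at 5.65, replicate 6 at 100 days was low for Ctdp1 at 5.02, and replicate 7 at 70 days was low for Acta1 at 7.30.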

How the results depend on the processing

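The count of genes at an adjusted p under 0.05 in G93A-SOD1 cords stayed at 0 in the alternatives tried, except a last one given below and the fit without replicate 8 at 100 days, where it was 1, so that leaving out 1 array at a time gave 0 to 1. The count at an unadjusted p under 0.05 was 764, and ran from 181 on the deposited series matrix values to 1362 without a detection filter, where 19596 genes were tested. It was 480 to 1239 when 1 array was left out at a time, 514 when only the groups compared were fitted, 600 without both arrays, 1086 under median centring and 1187 with array weights. Further choices were made after the data were seen, normalization without both arrays and without 5 cord arrays, and each gave 0. The 5 are both of those arrays and the wild type arrays named above as dim or with muscle transcripts. A last fit, also chosen after seeing the data, left out 3 G93A-SOD1 arrays, replicates 1 and 2 at 70 days and replicate 8 at 100 days, and called 29 genes, 28 higher and 1 lower. In it replicate 2 was left out because its microglial genes had been seen to be high, so the fit selects arrays by the outcome it tests; its calls support nothing and are not used. The wild type count of 0 became 1 with 3 tissues normalized together, with array weights, without both arrays, without the 3 arrays, without the 5 arrays, in both fits normalized without arrays, and without replicate 1 or 2 at 70 days, which gave 0 to 1. With the replicate number as a block the count was 0, with 762 at an unadjusted p under 0.05; 4 of 8 arrays at 100 days correlated best with their own number.

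Of 87 named genes, 24 changed the sign of their log2 fold change under some alternative; the cause was not tested. On the series matrix values Def8 was at 0.078, Ebag9 at 0.023, Olfr1284 at 0.015, Gml2 at 0.051, Dok6 at 0.065, Gramd3 at 0.0084, Zfp352 at 0.065, Tapbp at 0.016, Anxa4 at 0.090, Chat at 0.12, Ogn at 0.052 and Acta1 at 0.12. Under median centring, which moved all genes by a median of 0.41, Cdkn1c was at 0.21, Gal3st1 at 0.15, Chat at 0.030, Vamp1 at 0.31, Slc6a9 at 0.31, Cldn11 at 0.24, Gpr17 at 0.18, Cldn5, of endothelial tight junctions, at 0.16, Slc18a3 at 0.19 and Acta1 at 0.47. With array weights Acta1 was at 0.027. Ckm was at -0.32 without both arrays and without the 5 arrays, -0.28 without the 3 arrays, and -0.32 and -0.33 in the fits normalized without arrays. With 1 array left out at a time Ckm ran from -0.21 to 0.58, Gfap ran from -0.10 to 0.23, Mbp from -0.018 to 0.039, Alas2 from -0.022 to 0.41 and Acta1 from -0.66 to 0.12. Of list medians, 41 moved by more than the spread between arrays, 32 of them under median centring. On the series matrix values 0 genes of the lysosomal list and 0 of the matrix list were higher at an unadjusted p under 0.05, against 1.18% over all genes. Under median centring these lists had 9 and 10 higher, against 9.8% over all genes.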

Other observations

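Further lists fall in no comparison described so far. Proliferation genes had 10 of 13 members above 0 and a median of 0.23, beside a median of -0.03 in wild type cords. At an unadjusted p under 0.05, 1 was higher, against 4.79% over all genes. Cytosolic ribosome genes had 14 of 19 above 0 and a median of 0.07, beside 0.05 in wild type cords, with Rps15 at 0.31 and Rps20 at 0.18 (limma adjusted p = 0.677 each). Of 17 tested genes of the endothelium and pericyte list 2 were higher and 2 lower at an unadjusted p under 0.05. Over all genes 4.79% were higher and 2.29% lower. The angiopoietin receptor Tek was at 0.56, its relative Tie1 at 0.35, and Cldn5, a tight junction protein, at -0.39. Of the circadian clock list 8 of 14 were above 0, and Nr1d2, a transcriptional repressor, had log2 signals of 6.61, 7.88 and 8.22 at 100 days, against 7.98, 8.26 and 10.02 at 70 days, a log2 fold change of -0.75 (SE 0.26) that was -0.55 without both arrays. Per1, another clock gene, was at 0.59, and 0.34 without both arrays. The labels used here give no time of day.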
